A study of Mus musculus with 54 samples.

Results

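Axon guidance ligands and receptors were examined as 71 genes of 9 families, chosen by symbol from the 16772 genes of a table of log2 normalized counts from mouse prostate tumours. The symbols were those of the semaphorins Sema3a to Sema7a with their plexin and neuropilin receptors, the ephrins and Eph receptors, the slits and Robo receptors, and the netrins with Dcc, Neo1 and the Unc5 receptors. GENCODE M21 annotates 72 genes under that rule, and Epha6 was not analysed here. The table held 20 semaphorins, 9 plexins, 2 neuropilins, 8 ephrins, 13 Eph receptors, 3 slits, 4 Robo receptors, 6 netrins and 6 netrin receptors.

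Bulk RNA was sequenced from prostate tumour tissue of engineered mouse models called DKO and TKO, and of DKO mice that the submitters describe as carrying Ezh2 deletions, called DKO_EE and DKO_EP. The Ezh2 protein is the methyltransferase of a Polycomb complex that marks histone H3 and silences developmental genes. All animals of the DKO_EE and DKO_EP groups share the DKO background, and what EE and EP stand for, which genes make up DKO and TKO, and which promoter drives the deletions are not given in the sources used here. The 54 libraries came from 48 animals in 11 groups, with 3687048 to 9741808 reads per library over the genes of the table (median 6314364).

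Intact mice were sampled at 12 weeks of age, 4 animals for each of the 3 DKO genotypes. Intact mice were also sampled at endstage, with 3 DKO animals of 35 to 46 weeks, 8 DKO_EE animals of 28 to 42 weeks and 3 DKO_EP animals of 39 to 52 weeks. Mice castrated at 12 weeks reached endstage in 4 DKO animals of 39, 99, 84 and 50 weeks, 5 DKO_EE animals of 35 to 59 weeks and 5 DKO_EP animals of 34 to 37 weeks. Castrated TKO mice were given vehicle (4 animals of 15 to 19 weeks) or CPI1688, described as an Ezh2 inhibitor (4 animals of 18 to 19 weeks). Age therefore differed between groups, most of all in castrated DKO.

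Ezh2 transcript remained in every group and was lowest in DKO_EE among the DKO genotypes in each setting. At intact endstage its mean log2 value was 8.28 in DKO_EE, 9.61 in DKO and 9.39 in DKO_EP. Against DKO, the log2 fold change of Ezh2 in DKO_EE was -0.80 at 12 weeks, -1.34 at intact endstage and -0.90 after castration, and limma called it at intact endstage alone (adjusted p = 0.0194). In DKO_EP it was -0.18, -0.22 and -0.19 and was not called, so the transcript level there does not show the deletion that the description gives. The luminal keratin Krt8 was high in all groups, with group means of 11.54 to 13.33. The androgen-dependent prostate secretory genes Pbsn and Msmb were at 0 in every endstage animal of the 3 DKO genotypes and in every vehicle TKO animal. The summed neuroendocrine list (10 genes, Chga among them) had group medians of 7.78 to 9.48 on the log2 scale at 12 weeks and of 14.02 to 14.72 in the endstage and TKO groups. Castrated DKO animal 2, aged 99 weeks, stood apart with a neuroendocrine sum of 7.13 and a basal epithelial sum of 15.98, and TKO vehicle animal 1 had a neuroendocrine sum of 8.96. The mitochondrial tRNA synthetase gene Lars2 took 10% or more of the reads in 5 of 12 intact DKO_EE libraries and in 5 of 5 intact DKO_EP libraries. The skeletal muscle gene Ttn took 1% or more of the reads in 2 DKO and 2 DKO_EP libraries of 12 weeks. For progression, intact DKO_EE against DKO and castration in DKO_EE, counts of called members are also given without these libraries where they could be left out. Most values of single genes are given with them only.

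Axon guidance cues are secreted or membrane-bound proteins that attract or repel growing axons, and the same ligands act on epithelium, vessels and stroma outside the nervous system. Semaphorins signal through plexins, with neuropilins as co-receptors for the class 3 members, and ephrins signal between touching cells through the Eph receptor tyrosine kinases. Slits repel through Robo receptors, and the classical netrin Ntn1 acts through Dcc and Neo1 or, for repulsion, through the Unc5 receptors.

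Promoters are shown for the 4 members that the comparisons turn on most. Sema3e and Efnb2 were among the 4 members with the smallest adjusted p between 12 weeks and endstage in each genotype, and Epha5 and Sema4a had the smallest adjusted p between castrated DKO_EE and castrated DKO. Each sequence is RefSeq's on GRCm38.p6, runs 5′ to 3′ on the gene's strand from 250 bases before the start to 50 bases after it, and has its CG dinucleotides in capitals, since CpG-rich promoters are the ones that Polycomb complexes are known to occupy. Sema3e lies at chr5:14025026-14025325 on the plus strand, Efnb2 at chr8:8661193-8661492 on the minus strand, Epha5 at chr5:84417333-84417632 on the minus strand and Sema4a at chr3:88461133-88461432 on the minus strand.
Sema3e: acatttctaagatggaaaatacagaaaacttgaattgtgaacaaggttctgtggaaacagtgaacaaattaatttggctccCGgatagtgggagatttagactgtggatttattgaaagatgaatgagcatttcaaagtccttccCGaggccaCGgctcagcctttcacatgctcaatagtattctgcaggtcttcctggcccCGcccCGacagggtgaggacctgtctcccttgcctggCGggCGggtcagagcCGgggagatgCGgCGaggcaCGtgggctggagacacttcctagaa
Efnb2: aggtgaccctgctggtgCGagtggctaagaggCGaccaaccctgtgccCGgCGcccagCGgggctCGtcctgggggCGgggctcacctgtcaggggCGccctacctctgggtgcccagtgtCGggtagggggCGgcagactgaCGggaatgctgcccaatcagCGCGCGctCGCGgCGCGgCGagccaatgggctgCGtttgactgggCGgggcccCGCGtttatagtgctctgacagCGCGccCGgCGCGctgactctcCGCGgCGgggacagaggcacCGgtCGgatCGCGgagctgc
Epha5: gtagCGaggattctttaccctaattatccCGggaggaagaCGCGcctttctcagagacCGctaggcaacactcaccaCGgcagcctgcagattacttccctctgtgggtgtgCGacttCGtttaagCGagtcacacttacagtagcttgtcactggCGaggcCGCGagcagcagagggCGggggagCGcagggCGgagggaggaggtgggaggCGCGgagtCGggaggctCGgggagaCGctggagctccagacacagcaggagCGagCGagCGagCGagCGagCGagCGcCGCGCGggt
Sema4a: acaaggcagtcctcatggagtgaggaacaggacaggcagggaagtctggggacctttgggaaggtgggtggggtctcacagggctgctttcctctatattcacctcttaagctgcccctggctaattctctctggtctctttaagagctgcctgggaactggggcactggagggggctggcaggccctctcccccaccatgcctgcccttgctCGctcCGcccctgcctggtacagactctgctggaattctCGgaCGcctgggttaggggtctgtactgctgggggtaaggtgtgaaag
These windows hold 11 CG dinucleotides in Sema3e, 35 in Efnb2, 30 in Epha5 and 4 in Sema4a.

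A promoter was matched by symbol for 61 of the 71 members. Their median was 23 CG dinucleotides in 300 bases, against 7 over all 27025 mouse promoters of that length. At least 15 CG were found in 67.2% of the members' promoters (41 genes) and in 35.2% of all promoters. The letters TATAAA, searched on both strands, were found in 3.28% of the members' promoters (Efnb2 and Slit2) and in 14.2% of all. The E-box letters CAGCTG, the same on either strand, were found in 14.8% of the members' promoters and in 16.1% of all. Dcc, Efnb3, Ntn1, Plxna1, Plxna4, Sema3b, Sema3f, Sema6a, Slit1 and Unc5d had no entry.

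**Figure D1:**
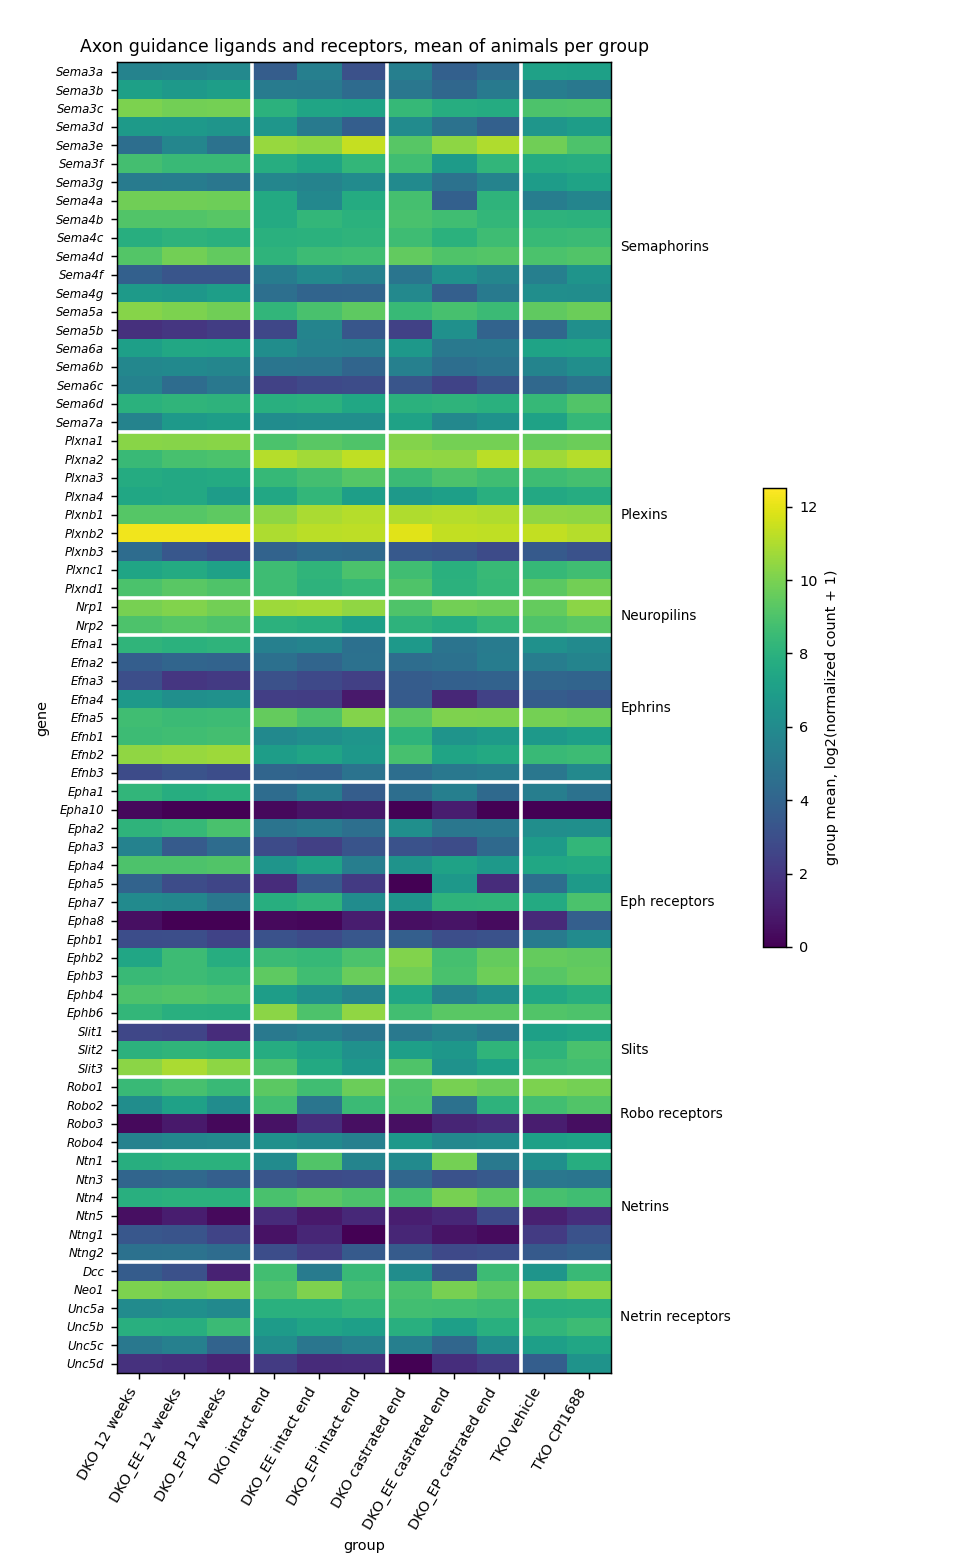
Mean log2 normalized count of each of the 71 members (rows, by family) in the 11 groups (columns), with colour from 0 to the highest group mean. Sema3e brightens and Efnb2, Epha2 and Efna4 darken from the 12-week columns to the endstage columns, and Epha5, Ntn1, Sema4a and Robo2 in the castrated DKO_EE column differ from the castrated DKO column beside it.

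Most members were expressed: 57 of 71 had reads in all 48 animals, and 1, Robo3, never passed 10 normalized counts (highest log2 value 2.95). The most abundant member of each family, in normalized counts per kilobase of exon averaged over animals, was Plxnb2 among plexins (420), Efna5 among ephrins (186), Ephb6 among Eph receptors (164), Ntn4 among netrins (150), Sema3e among semaphorins (128), Nrp1 among neuropilins (118), Slit3 among slits (115), Neo1 among netrin receptors (109) and Robo1 among Robo receptors (42.7). The widest spread of group means on the log2 scale was that of Dcc (7.55), followed by Sema3e (6.89), Epha5 (6.80), Unc5d (6.42) and Sema4a (5.97). Group means spanned more than 3 log2 units in 29 members (40.8%) and in 25.6% of all genes. The groups accounted for a median of 56.3% of a member's variance among animals, against 54.1% over all genes.

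Between 12 weeks and intact endstage, tumours of all 3 genotypes gained Sema3e, Plxna2, Plxnb1, Ephb6, Slit1 and Unc5a. They lost Efnb1, Efnb2, Efna1, Efna4, Epha1, Epha2, Epha4, Ephb4, Ntng1 and several semaphorins and plexins. In DKO, 11 members rose and 17 fell (39.4% of 71), where 36.7% of all genes were called (18% higher, 18.7% lower). In DKO_EE, 12 rose and 27 fell (54.9%), where 50.6% of all genes were called (23.6% higher, 27% lower). In DKO_EP, 14 rose and 25 fell (54.9%), where 44.2% of all genes were called (21.3% higher, 22.9% lower). A call is a limma adjusted p under 0.05 over all genes. Fold changes are differences of log2(normalized count + 1), which understate the change of genes with few reads. Each p-value sets a difference of group means against the spread between animals, pooled over the groups in the fit. The share of members that rose (15.5%, 16.9% and 19.7%) lay below that of all genes in each genotype, and the share that fell (23.9%, 38% and 35.2%) lay above it. The members' median log2 fold changes were -0.25, -0.20 and -0.44 in DKO, DKO_EE and DKO_EP, against -0.04, -0.07 and -0.06 over all genes. In bulk tissue, fewer cells of a type and less RNA per cell cannot be told apart.

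Among the semaphorins, 1 rose and 6 fell of 20 in DKO, 3 rose and 10 fell in DKO_EE, and 2 rose and 9 fell in DKO_EP. Sema3e, a secreted ligand that binds Plxnd1 without a neuropilin, had log2 values of 4.09, 5.05, 5.54 and 3.37 in the 12-week DKO animals and of 10.05, 10.99 and 10.67 at endstage. In DKO_EE it went from 5.20, 5.37, 5.61 and 6.87 to a range of 9.86 to 11.02 over 8 animals (median 10.41), and in DKO_EP from 4.24, 5.12, 5.21 and 4.29 to 11.10, 11.38 and 11.74. No endstage animal overlapped a 12-week animal of its genotype. The log2 fold change by limma was 6.06 in DKO (SE 0.95, adjusted p = 5.68e-06), 4.61 in DKO_EE (SE 0.76, adjusted p = 6.11e-06) and 6.69 in DKO_EP (SE 0.95, adjusted p = 1.23e-06).

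The transmembrane ligand Sema4d, which binds Plxnb1, fell in every genotype, by 1.04, 1.27 and 0.84 log2 units in DKO, DKO_EE and DKO_EP. Its values in DKO were 9.12, 9.0, 9.05 and 9.47 at 12 weeks and 8.41, 7.92 and 8.05 at endstage, without overlap. Sema3b, Sema3c, Sema4b and Sema6c fell in all 3 genotypes too, with log2 fold changes from -3.07 (Sema6c in DKO) to -0.84 (Sema4b in DKO_EE). Sema5b, a transmembrane semaphorin with thrombospondin repeats, rose in DKO_EE by 3.66 (SE 0.64, adjusted p = 1.36e-05 by limma). Its values there were 1.03, 2.88, 1.89 and 2.12 at 12 weeks and 3.74 to 6.43 at endstage (median 5.93), so the ranges were apart.

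Of the 9 plexins, 3 rose and 2 fell in DKO, 3 rose and 3 fell in DKO_EE, and 4 rose and 2 fell in DKO_EP. Plxna2, a class A plexin, rose by 2.61 (SE 0.53) in DKO, 1.90 (SE 0.43) in DKO_EE and 2.33 (SE 0.53) in DKO_EP. Its DKO values were 7.89, 8.81, 9.21 and 8.05 at 12 weeks and 10.71, 10.85 and 11.75 at endstage. Plxnb1, the Sema4d receptor, rose while Sema4d fell: it went in DKO_EE from 8.45, 9.69, 8.77 and 9.84 to 10.55 to 11.68 (median 10.76), a log2 fold change of 1.74 (SE 0.25, adjusted p = 6.82e-07 by limma). Plxnb2, the most abundant plexin, fell by 1.27, 1.02 and 0.97 in DKO, DKO_EE and DKO_EP, from 11.96 to 12.40 over the DKO animals of 12 weeks to 10.95, 11.09 and 10.80 at endstage. Plxna1 fell in all 3 genotypes as well, and Plxnd1, the receptor of Sema3e, fell in DKO_EE by 1.20 (SE 0.41, adjusted p = 0.0140 by limma).

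The 2 neuropilins, co-receptors for class 3 semaphorins and for vascular endothelial growth factor, moved apart. Nrp1 rose in DKO by 0.76 (SE 0.27) and in DKO_EE by 0.64 (SE 0.22), and Nrp2 fell in DKO_EE by 1.37 (SE 0.45) and in DKO_EP by 1.90 (SE 0.57). Nrp1 in DKO_EP had a log2 fold change of 0.62 and was not called.

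Of the 8 ephrins, 4 fell in each genotype (Efna1, Efna4, Efnb1 and Efnb2), while 1 rose in DKO, 0 in DKO_EE and 2 in DKO_EP. Summed over the family, ephrin transcript in DKO was 659 ± 102 normalized counts per kilobase at 12 weeks (SD, n = 4) and 279 ± 21.2 at endstage (SD, n = 3). Efnb2, the transmembrane ligand of Ephb4 that marks arteries, had log2 values of 10.14, 10.41, 10.94 and 10.28 in DKO at 12 weeks and of 7.55, 7.39 and 6.01 at endstage. All 11 DKO_EE and DKO_EP endstage animals lay between 6.21 and 8.13, below each of the 8 animals of those genotypes at 12 weeks, whose lowest value was 10.13. The log2 fold change was -3.46 in DKO (SE 0.65, adjusted p = 6.91e-05), -3.23 in DKO_EE (SE 0.52, adjusted p = 4.07e-06) and -4.02 in DKO_EP (SE 0.65, adjusted p = 7.11e-06) by limma.

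Efnb1, another transmembrane ephrin, went in DKO from 8.37, 8.57, 8.90 and 8.51 to 6.23, 6.43 and 5.13, again without overlap. It fell by 2.66 (SE 0.49) in DKO, 2.43 (SE 0.39) in DKO_EE and 2.24 (SE 0.49) in DKO_EP. Efna1, a lipid-anchored ligand of Epha2, fell by 2.77, 2.30 and 3.55, and in DKO_EP went from 8.23, 7.42, 9.13 and 7.79 to 4.98, 4.99 and 3.82. Efna4 fell by 4.36, 3.93 and 5.46, to endstage means of 2.33, 2.28 and 0.85, where single reads decide its value. Efna5 went the other way, with rises of 0.88 in DKO and 1.56 in DKO_EP. In DKO its values were 8.52, 8.97, 8.83 and 8.39 at 12 weeks and 9.48, 9.26 and 9.94 at endstage.

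Of the 13 Eph receptors, 2 rose and 4 fell in each genotype. Epha1, Epha2, Epha4 and Ephb4 were the 4 that fell in all of them, with log2 fold changes from -4.31 (Epha2 in DKO_EP) to -1.85 (Epha4 in DKO_EE). Epha2, the best known Eph receptor of epithelium, was at 7.85, 8.14, 8.08 and 8.44 in DKO at 12 weeks and at 5.84, 5.96 and 2.67 at endstage. Ephb6, a receptor whose kinase domain is inactive, rose by 2.06 (SE 0.52), 1.08 (SE 0.42) and 2.56 (SE 0.52) in DKO, DKO_EE and DKO_EP. Ephb3 rose in DKO by 0.89 and in DKO_EP by 1.29, and Epha7 rose in DKO_EE by 2.39.

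Slit1 rose in all 3 genotypes, by 2.38 (SE 0.90), 2.81 (SE 0.72) and 3.36 (SE 0.90), from means of 2.67, 2.57 and 1.57 to means of 5.05, 5.38 and 4.93. Slit3, the slit with the highest level, fell by 3.32 (SE 0.79) in DKO_EE and 3.72 (SE 0.98) in DKO_EP. Of the Robo receptors, Robo2 fell in DKO_EE by 2.29 (SE 0.88, adjusted p = 0.0286 by limma), whereas its log2 fold change was 2.58 in DKO and 2.41 in DKO_EP without a call. The difference between DKO_EE and DKO in that change was -4.87 (SE 1.41, adjusted p = 0.149), which did not pass.

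Of the 6 netrin receptors, 2 rose in DKO, 1 rose in DKO_EE, and 2 rose and 2 fell in DKO_EP. Unc5a, a repulsive netrin receptor with a death domain, went in DKO from 5.74, 6.10, 6.23 and 6.10 to 7.81, 7.62 and 8.41 and rose by 1.91 (SE 0.41), 1.74 (SE 0.33) and 2.37 (SE 0.41) in DKO, DKO_EE and DKO_EP. Dcc, the attractive netrin receptor, had the widest change: 3.81, 4.33, 5.33 and 1.11 in DKO at 12 weeks against 9.33, 8.64 and 8.24 at endstage. In DKO_EP it was at 0 in 2 animals and at 2.38 and 2.36 in the others at 12 weeks, and at 9.40, 7.58 and 8.39 at endstage. Dcc rose by 5.09 in DKO (SE 1.39, adjusted p = 0.00373) and by 7.27 in DKO_EP (SE 1.39, adjusted p = 6.94e-05) by limma, and in DKO_EE the log2 fold change of 2.09 was not called (SE 1.11, adjusted p = 0.115). The ligand Ntn4 rose in DKO_EE by 1.32 (SE 0.38), and Ntn1 fell in DKO_EP by 2.36 (SE 0.86). Ntng1, at only 0.613 normalized counts per kilobase averaged over animals, fell in all 3 genotypes, and Ntn3 and Ntng2 fell in DKO_EE.

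**Figure D2:**
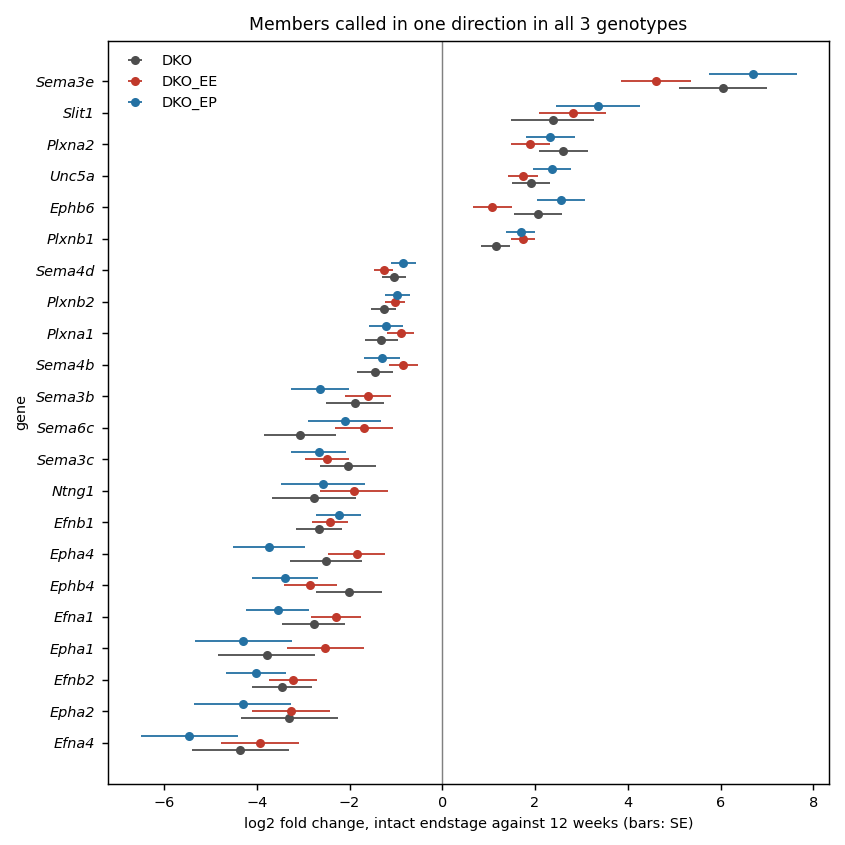
Log2 fold change with its SE (bars), intact endstage against 12 weeks, in DKO, DKO_EE and DKO_EP for the 22 members called in one direction in all 3 genotypes. Sema3e lies furthest to the right at 4.61 to 6.69, and Efna4 furthest to the left at -5.46 to -3.93.

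The 3 progressions share no animal. Of the members, 6 rose and 16 fell in all of them, 22 in all or 31.0%, against 25.7% of all genes called alike in the 3. These 22 are 78.6% of the members called in DKO and 56.4% of those called in DKO_EE and in DKO_EP, where the same shares over all genes are 69.9%, 50.8% and 58.1%. Opposite calls were found in 0 members and in 25 of all genes. Without intact DKO animal 3, 17 of the 28 calls in DKO remained, among them Sema3e at 6.01, Efnb2 at -2.97 and Dcc at 5.34 on the log2 scale, and Nrp1, Slit1, Efna5 and Epha2 were among those lost. Without the 12-week animals rich in Ttn, 19 members were called in DKO, 38 in DKO_EE and 32 in DKO_EP. Without the libraries rich in Lars2, 38 were called in DKO_EE, and in DKO_EP no intact endstage library would be left. The share of all genes called is not given for these reduced fits. Calls lost by members alone and calls lost by genes in general therefore cannot be told apart.

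Cell type markers moved with these changes. The neuroendocrine list rose in 9, 10 and 10 of 10 genes in DKO, DKO_EE and DKO_EP, with median log2 fold changes of 6.03, 5.18 and 6.79. The basal epithelial list fell in 5, 7 and 7 of 8 genes, with medians of -4.40, -5.48 and -6.52, and the smooth muscle list in 6 of 6 genes in each genotype. The fibroblast list was called lower in 0, 8 and 4 of 8 genes, with medians of -1.18, -2.85 and -2.24. Of the 7 Schwann cell and glia genes 6, 3 and 3 fell. The luminal list fell in 6, 4 and 5 of 10 genes, with medians of -2.28, -1.06 and -1.71, and the skeletal muscle list in 6, 1 and 4 of 6. Of the 8 neuron genes 3 rose in each genotype and 4, 1 and 1 fell. Of the T and NK cell list 2, 4 and 3 of 5 genes fell, of the macrophage list 0, 3 and 0 of 6, and of the seminal vesicle list 3, 2 and 6 of 6, while 1 of 8 endothelial genes rose in each genotype. The part of these cell types in the members' changes was not tested.

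On a signalling list of 65 other axon guidance pathway genes, with adhesion proteins and ligands among them, similar numbers rose and fell. Of all genes, 36.7%, 50.6% and 44.2% were called in DKO, DKO_EE and DKO_EP. In DKO 15 rose and 14 fell, with Limk2, a cofilin kinase, at -1.49, the ephexin Ngef, an exchange factor bound by Epha4, at -3.85, the Src family kinase Fyn at 1.91 and the actin regulator Enah at -3.18. In DKO_EE 17 rose and 16 fell, with the ephrin-cleaving protease Adam10 at -1.84, Fyn at 1.74, the Rac exchange factor Tiam1 at 1.67 and the slit-robo GTPase activator Srgap2 at -0.78. In DKO_EP 15 rose and 13 fell, with Rnd2 at 2.35, the collapsin response mediator Dpysl5 at 5.83, Rgmb, a ligand of Neo1, at -3.02 and the co-receptor Boc at -4.98 (all log2 fold changes called by limma).

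At 12 weeks no member was called between genotypes. For DKO_EE against DKO and for DKO_EP against DKO, 0 of 71 members and 0% of all genes were called by limma. By that fit 4 and 1 members had an unadjusted p under 0.05, as had 796 and 449 of the 16626 genes tested. The members were Efna4 (-0.49), Sema4d (0.67), Sema3e (1.25) and Epha1 (-0.45) in DKO_EE and Dcc (-2.46) in DKO_EP, on the log2 scale. A second fit, limma-voom on the recovered reads, called 0 members in either. In DKO_EE against DKO, limma did not call Ezh2 (-0.8) or Pbsn (-5.84) either. The absence of calls therefore does not show that the members were alike.

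At intact endstage, DKO_EE tumours had more Sema5b and less Dcc than DKO tumours, the only 2 members called (2.82%), where 1.66% of all genes were called (1.12% higher, 0.541% lower). Sema5b was at 3.55, 1.5 and 2.86 in DKO and at 3.74 to 6.43 in the 8 DKO_EE animals (median 5.93), a log2 fold change of 3.0 (SE 0.56, adjusted p = 0.0172 by limma). Dcc was at 9.33, 8.64 and 8.24 in DKO and at 2.29 to 6.91 in DKO_EE (median 5.25), a log2 fold change of -3.56 (SE 0.76, adjusted p = 0.0322 by limma). In neither gene did the animals of the 2 genotypes overlap. Without the libraries in which Lars2 took 10% or more of the reads 0 members were called, as with age as a covariate and without intact DKO animal 2 or 3. By limma-voom the Sema5b call was lost (adjusted p = 0.111), and with all 11 groups in the limma fit the Dcc call was (adjusted p = 0.15). The count was 1 without intact DKO animal 1 or DKO_EE animal 2, 5 or 6, and 5 without DKO_EE animal 3.

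The ligand Ntn1 was at 5.73 to 11.25 in intact DKO_EE (median 9.56) and at 6.70, 6.20 and 5.16 in DKO, a log2 fold change of 3.07 that was not called (SE 0.91, adjusted p = 0.106 by limma). Robo2 was not called either, at 2.12 to 8.44 (median 4.34) against 9.18, 7.94 and 8.99 (log2 fold change -3.82, SE 1.04, adjusted p = 0.0834). Of the signalling list, 4 rose and 1 fell, with the Rac GTPase activator Chn1 at 3.74, the cell adhesion gene Nrcam at -1.46 and the actin-binding protein Ablim1 at 1.20. For DKO_EP against DKO, 0 members were called, where 0% of all genes were. An unadjusted p under 0.05 was found for 5 of 71 members, with Plxnb1 at 0.74 and Sema3d at -2.85 first, and for 965 of 16640 genes. In that comparison limma-voom called 0 members.

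After castration the difference between DKO_EE and DKO took in 15 members: Epha5, Ntn1 and Sema5b rose and 12 fell, Sema4a, Robo2 and Slit3 the most. This was 21.1% of the members, where 7.72% of all genes were called (3.42% higher, 4.3% lower). The members that fell were Sema3f, Sema4a, Sema6a, Sema7a, Plxnd1, Efnb1, Ephb2, Ephb3, Ephb4, Slit3, Robo2 and Unc5b. The members' median log2 fold change was -0.45 (-0.46 with genes at 0 in DKO set to their bounds or left out), against 0.00 over all genes.

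**Figure D3:**
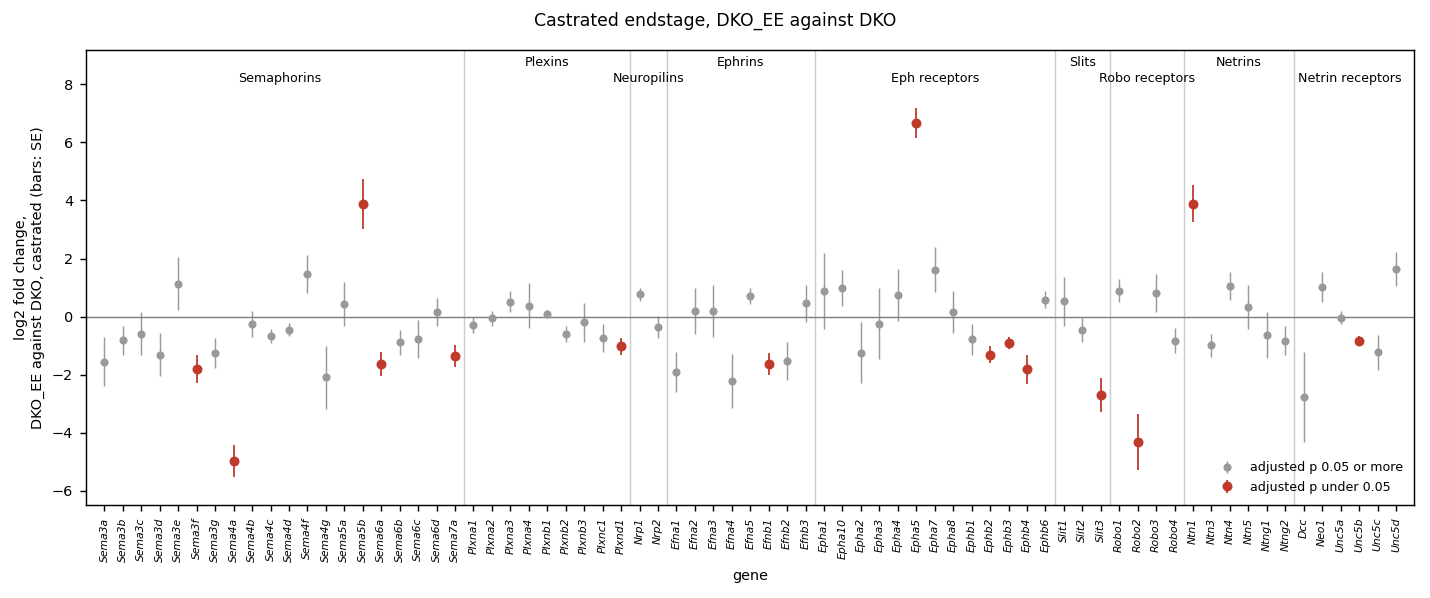
Log2 fold change with its SE (bars) of all 71 members by family, castrated DKO_EE against castrated DKO, with members called by limma in red. Epha5, Ntn1 and Sema5b lie above 3 and Sema4a and Robo2 below -4, while the plexins run from -1.03 to 0.51.

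Epha5, an Eph receptor of the nervous system that binds A-class ephrins, was at 0 in all 4 castrated DKO animals and at 6.24, 8.31, 7.23, 5.94 and 5.68 in DKO_EE. The DKO_EE mean was 130 ± 111 normalized counts (SD, n = 5; lowest 50.2), at least 30.2-fold higher than the 4.31 normalized counts to which 3 reads come in the shallowest of the 4 DKO libraries. The limma adjusted p was 1.52e-05. In intact tumours the gene was at 0, 0 and 4.70 in DKO and at 1.35 to 5.76 in DKO_EE, and the difference in the genotype effect between castrated and intact tumours did not pass (4.76, SE 1.87, adjusted p = 0.417). The Epha5 promoter shown has 30 CG, above the members' median, and a link between CG content and the change was not tested.

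Ntn1, the classical netrin, was at 7.08, 6.54, 4.07 and 6.27 in castrated DKO and at 8.11, 9.37, 11.01, 10.21 and 10.71 in castrated DKO_EE, without overlap. It rose by 3.89 (SE 0.63, adjusted p = 0.00343 by limma). All netrins together came to 507 ± 301 normalized counts per kilobase in DKO_EE (SD, n = 5) and to 160 ± 57.2 in DKO (SD, n = 4). That sum is not Ntn1 alone. Ntn4 and Ntn1 both had their highest mean log2 value in castrated DKO_EE, and their highest group levels per kilobase were 315 and 187. Ntn4 was not called in this comparison. Among the Ntn1 receptors Unc5b fell by 0.84 (SE 0.17, adjusted p = 0.0110), from 7.82, 8.1, 7.56 and 8.0 to 6.79, 7.11, 7.30, 7.16 and 6.81. Dcc was at 8.90, 0, 7.5 and 8.15 in DKO and at 2.33, 2.32, 3.76, 1.77 and 6.58 in DKO_EE and was not called (log2 fold change -2.78, SE 1.56, adjusted p = 0.288 by limma). The 0 is castrated DKO animal 2, and without that animal Dcc fell by 4.83 (SE 0.95, adjusted p = 0.00806).

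Sema4a, a transmembrane semaphorin of epithelium and immune cells, was at 8.44, 10.35, 8.54 and 7.97 in castrated DKO and at 2.59, 5.73, 3.87, 3.41 and 3.60 in castrated DKO_EE. It fell by 4.98 (SE 0.56, adjusted p = 0.000280 by limma). Its promoter has the fewest CG of the 4 shown, and here too a link was not tested. Sema5b was at 3.29, 3.88, 0 and 2.44 in DKO and at 4.87, 6.44, 5.84, 8.60 and 5.72 in DKO_EE and rose by 3.89 (SE 0.86, adjusted p = 0.0176). Neither gene's groups overlapped. Sema3f, Sema6a and Sema7a fell by 1.81, 1.63 and 1.36, and Plxnd1 by 1.03.

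The slit receptor Robo2 was at 9.74, 7.75, 9.23 and 9.15 in castrated DKO and at 6.82, 3.46, 3.06, 3.83 and 6.06 in castrated DKO_EE and fell by 4.32 (SE 0.97, adjusted p = 0.0189 by limma). Its ligand Slit3 was at 9.25, 8.51, 8.59 and 9.86 in DKO and at 5.5, 5.67, 6.15, 7.62 and 6.83 in DKO_EE and fell by 2.70 (SE 0.59, adjusted p = 0.0166). Both sets of animals were apart. The Robo2 call was lost by limma-voom (adjusted p = 0.0699) and without castrated DKO animal 1 (limma adjusted p = 0.0523). Robo1 had a log2 fold change of 0.89 without a call. Of the Ephs, Ephb3 went from 10.13, 9.53, 9.76 and 9.86 to 9.29, 8.81, 8.67, 8.33 and 9.40 and fell by 0.92 (SE 0.20, adjusted p = 0.0172). Efnb1, a ligand of Ephb2 and Ephb3, fell by 1.64 (SE 0.37), Ephb2 by 1.31 (SE 0.30) and Ephb4 by 1.82 (SE 0.49).

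**Figure D4:**
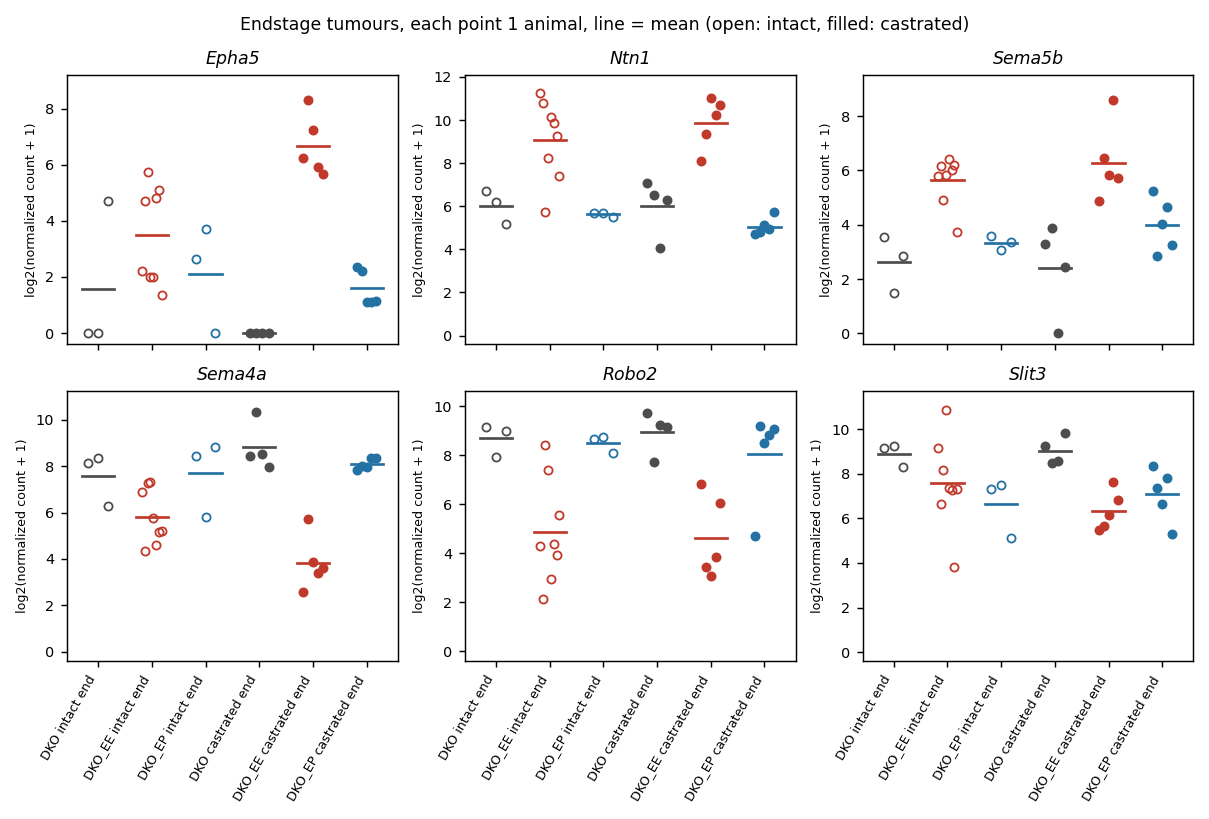
Log2 normalized count of Epha5, Ntn1, Sema5b, Sema4a, Robo2 and Slit3 in each endstage animal (points, open for intact and filled for castrated) with the group mean (lines). In each panel the 5 castrated DKO_EE animals lie wholly above or wholly below the 4 castrated DKO animals.

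Among the 15 called members, the animals of the 2 genotypes overlapped in Sema3f, Sema6a, Plxnd1, Ephb2 and Ephb4. Overlap was not counted over all genes, so separate groups in the other called members add no support to the calls. Of the 15 calls, 10 remained without castrated DKO animal 2: Efnb1, Epha5, Ephb2, Ephb3, Ntn1, Robo2, Sema4a, Sema5b, Slit3 and Unc5b. Without castrated DKO animal 1, 8 remained, namely Efnb1, Epha5, Ntn1, Sema3f, Sema4a, Sema5b, Slit3 and Unc5b, and with age as a covariate 6 did: Epha5, Ephb3, Ntn1, Robo2, Sema4a and Slit3. The fibroblast list moved with these members: 5 of its 8 genes fell in castrated DKO_EE, with a list median of -2.43, and Lum went from 8.41 ± 0.75 (SD, n = 4) to 4.45 ± 0.93 (SD, n = 5). Its summed log2 level was 14.15 to 15.35 in DKO and 12.53 to 13.80 in DKO_EE, and no listed gene was at 0 in every animal of either group. The basal epithelial sum was 12.33 to 15.98 and 10.49 to 11.57, with 1 of 8 genes lower. Their part in the lower members was not tested.

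Of the signalling list, 4 rose and 5 fell in castrated DKO_EE. Dock1, a Rac exchange factor that acts downstream of Dcc, fell by 5.17 (SE 0.57, adjusted p = 0.000273 by limma) and Dpysl3, a collapsin response mediator, by 2.12. Chn2, a Rac GTPase activator, rose by 2.51.

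DKO_EP tumours after castration did not show a called member against DKO: 0 of 71, where 0.0302% of all genes were called (0.0181% higher, 0.0121% lower). An unadjusted p under 0.05 was found for 17 of the 71 members and for 2423 of 16558 genes. Sema6a at -1.54 (SE 0.42, limma adjusted p = 0.182) came first among the members, and limma-voom called 0 members. Without castrated DKO animal 3 the count was 1. Between castrated DKO_EE and castrated DKO_EP, 5 members differed (7.04%, where 1.7% of all genes were called, 0.707% higher and 0.99% lower). That comparison shares its animals with the ones against DKO. Epha5 was at 2.37, 2.22, 1.11, 1.10 and 1.16 in DKO_EP, below all DKO_EE animals, and was higher in DKO_EE by 5.09 (SE 0.49, adjusted p = 0.000127 by limma). Ntn1 was at 4.70, 4.80, 5.12, 4.95 and 5.72 in DKO_EP and higher in DKO_EE by 4.83 (SE 0.59, adjusted p = 0.000832). Sema4a was at 7.86, 8.0, 7.98, 8.36 and 8.35 in DKO_EP, all above DKO_EE, with a log2 fold change of -4.27 (SE 0.53, adjusted p = 0.000832). Unc5b and Ephb3 were lower in DKO_EE, with log2 fold changes of -0.83 and -0.84. With all 11 groups in the limma fit both calls were lost (adjusted p = 0.437 and 0.0996). The Ephb3 call was also lost by limma-voom (adjusted p = 0.0542), with quantile normalization, and without any of the 5 DKO_EP animals or DKO_EE animal 2, 3 or 4. Dcc was at 7.88, 9.32, 9.98, 6.97 and 8.64 in DKO_EP, above each DKO_EE animal, and its log2 fold change of -5.20 was not called (SE 1.47, adjusted p = 0.106). Of the signalling list 1 gene was higher and 2 were lower, Dpysl3 at -1.68 and Dock1 at -2.76.

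The difference in the DKO_EE effect between castrated and intact tumours was called in 0 of 71 members, where 0.0119% of all genes were called. An unadjusted p under 0.05 was found for 14 members, with Efna5 (1.27) and Efnb1 (-1.94) first, and for 1638 of 16772 genes. The limma-voom fit called 0 members. The larger number of calls after castration is therefore not shown to be a larger effect. For progression, 0 members were called between DKO_EE and DKO where 0.125% of all genes were (0.0954% higher, 0.0298% lower). There 5 members and 1757 of 16772 genes had an unadjusted p under 0.05, and limma-voom called 0 members.

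Castrated endstage tumours had less Nrp1 than intact endstage tumours of the same genotype. In DKO, Nrp1 was at 10.71, 10.57 and 10.73 in intact and at 9.43, 8.92, 8.30 and 9.59 in castrated animals and fell by 1.61 (SE 0.27, adjusted p = 1.97e-05 by limma). In DKO_EE it was at 10.62 to 11.14 (median 10.70) and at 9.42, 10.10, 9.90, 10.08 and 9.63, and fell by 0.96 (SE 0.20, adjusted p = 0.000435). In DKO_EP it was at 10.39, 10.44 and 10.50 and at 9.69, 9.71, 9.82, 9.73 and 9.57, a log2 fold change of -0.74 that was not called (SE 0.26, adjusted p = 0.0669). In all 3 genotypes each castrated animal lay below each intact animal.

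In DKO, 8 members rose and 2 fell with castration (14.1%, where 13.9% of all genes were called, 7.01% higher and 6.93% lower). Sema4d was at 8.41, 7.92 and 8.05 in intact and at 9.38, 10.40, 9.12 and 9.19 in castrated animals and rose by 1.40 (SE 0.26, adjusted p = 0.000116 by limma). Efnb1 was at 6.23, 6.43 and 5.13 and at 7.92, 9.37, 7.36 and 7.85 and rose by 2.20 (SE 0.49, adjusted p = 0.00101). Neither gene's groups overlapped, and both calls were lost when the limma fit held only the groups compared (adjusted p = 0.0625 for Sema4d and 0.0703 for Efnb1). Plxnb2 was at 10.95, 11.09 and 10.80 and at 11.34, 13.09, 12.09 and 11.33 and rose by 1.02 (SE 0.27), and Plxna1 was at 9.28, 9.50 and 8.05 and at 10.35, 10.94, 9.52 and 9.95 and rose by 1.25 (SE 0.36). Sema4b was at a mean of 8.93 in castrated DKO and rose by 1.28 (SE 0.39), with Sema4c, Efnb2 and Ephb2 also higher and Ephb6 lower by -1.61 on the log2 scale.

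Castrated DKO animal 2 held the highest value of Sema4d, Efnb1, Plxnb2, Plxna1 and Sema4b, at 10.40, 9.37, 13.09, 10.94 and 10.84. Without it 4 of the 10 calls remained: Efnb1 at 1.78, Ephb2 at 1.87, Nrp1 at -1.56 and Sema4d at 1.10. Without intact DKO animal 3, 5 remained, and with age as a covariate 2 did, Nrp1 and Sema4d. The median of the neuroendocrine list was -1.82 in this comparison, with 0 of 10 genes called.

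In DKO_EE, 3 members rose and 1 fell with castration (5.63%, where 16.5% of all genes were called, 8.3% higher and 8.19% lower). Efna5 was at 7.64 to 9.46 in intact animals (median 9.18) and at 10.72, 9.57, 9.36, 10.71 and 10.02 after castration and rose by 1.07 (SE 0.23, adjusted p = 0.000619 by limma), with an overlap of the groups. Robo1 was at 7.89 to 10.29 (median 8.49) and at 10.86, 9.43, 9.52, 10.31 and 9.55 and rose by 1.26 (SE 0.37, adjusted p = 0.0138), also with an overlap. The Robo1 call was lost with the first library of each animal (limma adjusted p = 0.0577) and without castrated DKO_EE animal 1 (0.0779). Epha5 was at 1.35 to 5.76 (median 3.46) in intact and at 5.68 to 8.31 in castrated animals, with a narrow overlap, and rose by 3.19 (SE 1.12, adjusted p = 0.0432). The Epha5 call was lost without the libraries rich in Lars2 (2.23, limma adjusted p = 0.237), with age as a covariate (limma adjusted p = 0.0508), and without intact DKO_EE animal 1, 4, 5 or 8 or castrated DKO_EE animal 1, 2, 3 or 4. Without castrated DKO_EE animal 1, 2 members were called, and without the libraries rich in Lars2 4 were, Epha5 not among them. In DKO_EP 0 members were called, where 9.87% of all genes were (4.89% higher, 4.98% lower). An unadjusted p under 0.05 was found for 8 of 71 members and for 3318 of 16772 genes, and limma-voom called 0 members. The count was 1 without intact DKO_EP animal 1 or castrated DKO_EP animal 2. All intact DKO_EP libraries had 10% or more of their reads in Lars2 and no castrated library did, so the 2 cannot be told apart there.

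**Figure D5:**
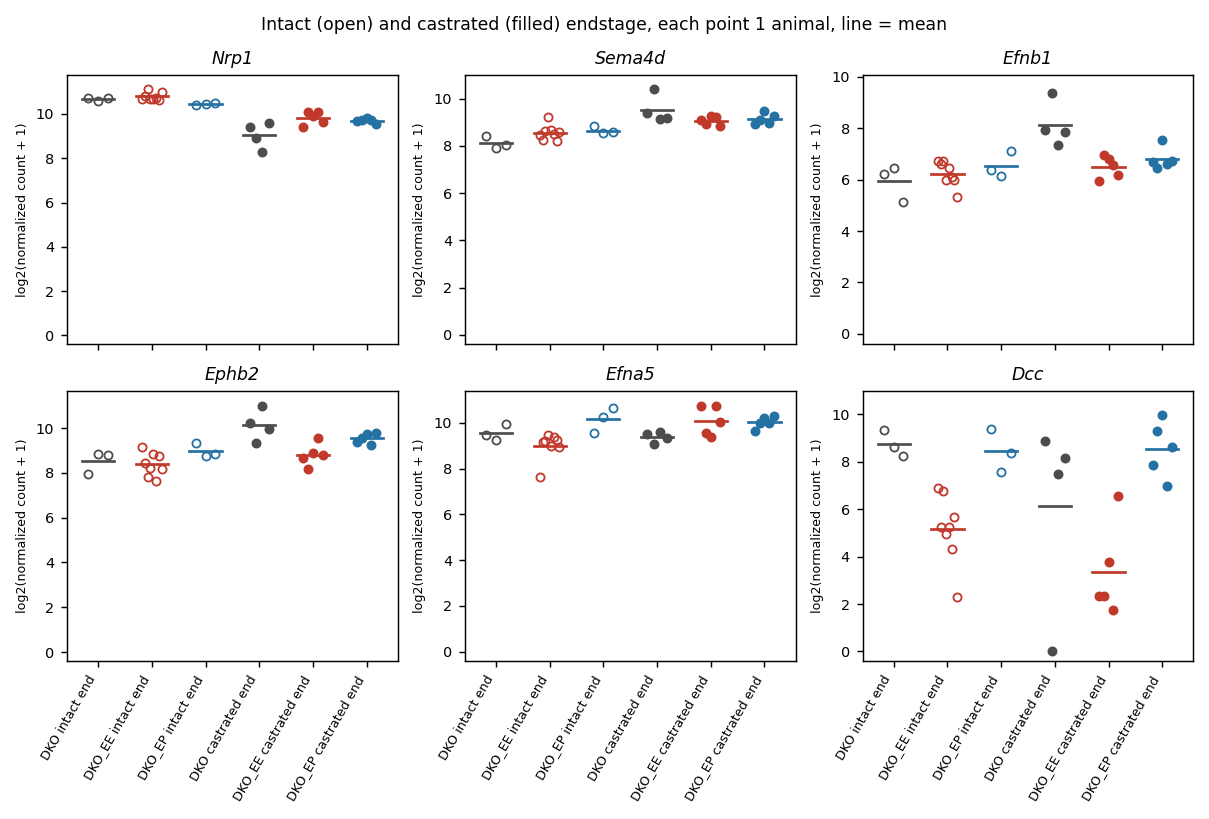
Log2 normalized count of Nrp1, Sema4d, Efnb1, Ephb2, Efna5 and Dcc in each endstage animal, open points for intact and filled points for castrated, with the group mean (lines). The filled Nrp1 points lie below the open ones in all 3 genotypes, and Dcc is lower in DKO_EE than in DKO_EP before and after castration.

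Of the 65 genes of the signalling list, 12 rose and 0 fell with castration in DKO, where 7.01% of all genes rose and 6.93% fell. Counts for this list without castrated DKO animal 2 or with age as a covariate are not given. Among those that rose were Rgma, a ligand of Neo1, at 2.33, the adaptor Nck1 at 0.55, Srgap1 at 1.66 and Rgmb at 2.0. In DKO_EE 8 rose and 3 fell, with Nck1 at 0.53, the Nogo receptor Rtn4r at -2.36, Rnd2 at 1.27 and the flavoprotein Mical1, which acts downstream of plexins, at -1.54. In DKO_EP 4 rose and 2 fell, with Rtn4r at -2.05 and Nck1 at 0.36 first. All are log2 fold changes called by limma.

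CPI1688 changed no member at the threshold in castrated TKO tumours: 0 of 70 members with any reads and 0% of all genes were called by limma, and limma-voom called 0. An unadjusted p under 0.05 was found for 4 members and for 337 of 16512 genes. The log2 fold changes of these 4 members were 1.35 for Epha7, 2.07 for Sema5b, 2.28 for Epha8 and 0.77 for Nrp1. Sema5b, the semaphorin that was higher in DKO_EE, was at 3.56, 4.21, 3.17 and 5.75 with vehicle and at 5.39, 6.28, 6.38 and 6.91 with CPI1688 (SE 0.63, unadjusted p = 0.0107, adjusted p = 1). The groups overlapped by the vehicle animal at 5.75. Epha5, Ntn1 and Sema4a were at means of 4.53, 6.24 and 5.29 with vehicle and of 6.80, 7.77 and 5.71 with CPI1688, with SDs among animals of up to 3.86.

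Castrated vehicle TKO tumours differed from castrated DKO tumours in 1 member, the netrin receptor Unc5d (1.41%, where 0.566% of all genes were called, 0.304% higher and 0.262% lower). Unc5d was at 0 in all 4 DKO animals and at 1.23, 3.93, 6.60 and 3.23 in TKO, on the log2 scale (limma adjusted p = 0.0325). In normalized counts the TKO animals ran from 1.35 to 95.7, where 3 reads in the shallowest DKO library come to 4.31, so 1 animal lay below that limit and animal 3 carried most of the mean of 29.9 ± 44.2 (SD, n = 4). Without TKO vehicle animal 2 the Unc5d call was lost (limma adjusted p = 0.0659). Sema4a was at 8.66, 6.84, 1.71 and 3.94 in TKO and was not called against DKO (log2 fold change -3.53, SE 0.92, adjusted p = 0.0661). Without TKO vehicle animal 1, whose neuroendocrine sum was low, 6 members were called: Unc5d and Slit1 (3.05) and Epha5 higher, and Sema4a (-4.66), Efnb1 (-2.05) and Plxnb2 (-0.89) lower. Without castrated DKO animal 2, 2 members were called, Unc5d and Neo1, the latter at a log2 fold change of 1.5. Without TKO vehicle animal 3 or 4, or castrated DKO animal 1, 3 or 4, 0 members were called, and limma-voom on all animals called 0. Dock1 was the 1 gene of the signalling list that fell, at -3.27. TKO animals were 15 to 19 weeks old, younger than all castrated DKO animals, so age and genotype cannot be told apart here.

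The 6 intact endstage animals with 2 tumour pieces each show how far the members vary within an animal. The median difference between pieces was 0.59 log2 units, and 34 members differed by more than 2 units in at least 1 animal. As an SD this was 0.74, against 0.79 among the animals of intact DKO_EE and DKO_EP.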

How the data were processed

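Total RNA from mouse prostate tumours was sequenced after ribosomal RNA depletion. The submitters' processing notes name FastQC, STAR, RSEM, limma and DESeq2 with the builds GRCm38 and mm10, and give no versions or roles. The authors deposited log2 values, log2 of a normalized count plus 1, for 16772 genes, and 8.92% of them are 0. With the logarithm and the offset removed, 100% of values were whole multiples of 1 step per library (tolerance 0.05 read), which gave the reads per library. Of 56 columns, 2 were not used because their names matched no sample.

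Libraries with the same animal identifier, genotype and age were averaged as pieces of 1 animal (6 animals), and the animal was the replicate. Groups were compared with limma 3.58.1 (R 4.3.3; trend of variance on mean) on the deposited log2 values, within a setting for genotypes and for CPI1688, and over all 11 groups otherwise, with Benjamini-Hochberg adjustment over all genes. The fits were tested on simulated data. Levels between genes are per kilobase of GENCODE M21 exons, and a gene at 0 in a whole group was set to 3 reads in its shallowest library for a lower bound. Sequences are RefSeq's. Whether counting used strand is not given in the sources used here, so a member and an overlapping antisense gene cannot be told apart.

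The members and all lists were chosen with earlier results of these data known, and so give no independent support. Values per animal were to be given for the 6 members of smallest adjusted p in each comparison with calls and for the most abundant and most variable member of each family. Other members shown were picked after their values were seen. Up to 4 genes of the signalling list were named per comparison, and 1 gene that this rule would name is not reported here. Alternatives left out the lowest 25% of genes, raised the offset to 8, used quantile normalization, array weights, limma-voom, the first library of an animal, other groups in the fit or age as a covariate, and left out libraries with much Lars2 or Ttn and each animal in turn. Leaving out the castrated DKO animals of 84 and 99 weeks was chosen after seeing the data. Figures used Python 3.11.15, pandas 2.3.3, numpy 2.4.6 and matplotlib 3.10.9.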

Additional observations from a re-analysis of the deposited data

Results flagged for a closer look

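In 72 pairs of a described gene and a group of 4 to 10 animals, 1 animal stood far from the rest in 2, where chance alone gives about 1 in 20 pairs. Sema6a was at 5.41 in castrated DKO animal 3 and at 6.97 to 7.15 in the other castrated DKO animals, on the log2 scale. Efna5, the most abundant ephrin, was at 7.64 in intact endstage DKO_EE animal 1 and at 8.94 to 9.46 in the other 7.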

How the results depend on the processing

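No paired analysis was possible because the labels give no replicate numbers that groups share. For 51 of the gene results in the text, 909 alternative fits kept 781 on their side of the threshold, ended the call in 128 and reversed none. Other gene results in the text are outside this tally, and some of them lost their call. Nrp1, Slit1, Efna5 and Epha2 in DKO progression did so without intact DKO animal 3. Epha5, Sema4a, Ntn1 and Slit3 in castrated DKO_EE against DKO lost no call. Counts of called members moved as follows, and the cause was not tested. The share of all genes called is not given for these fits or for those that leave out an animal. The counts therefore do not show whether members moved more than other genes. Array weights gave 43 in DKO progression, 6 in intact DKO_EE against DKO, 12 in castrated DKO_EE against DKO_EP, 10 and 7 for castration in DKO_EE and DKO_EP, 4 for TKO and 2 for the progression interaction. Fits of the groups compared alone gave 46 in DKO progression, 2, 7 and 4 for castration in DKO, DKO_EE and DKO_EP, and 0 for TKO. Age as a covariate gave 0 and 6 for intact and castrated DKO_EE against DKO, 2 and 2 for castration in DKO and DKO_EP, and 0 for TKO. Intact DKO_EE against DKO gave 1 without the lowest 25% of genes, 1 with first libraries and 0 without high Lars2, and castration in DKO_EP 1 with quantile normalization. TKO gave 0 without the lowest 25%, at offset 8 and by limma-voom. Without the animals of 84 and 99 weeks, castration in DKO gave 3 and TKO 0.

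Leaving out each animal in turn gave 17 to 26 members in DKO progression, 0 to 5 in intact and 8 to 15 in castrated DKO_EE against DKO, 0 to 1 in castrated DKO_EP against DKO, 4 to 7 between castrated DKO_EE and DKO_EP, 4 to 9, 2 to 5 and 0 to 1 for castration in DKO, DKO_EE and DKO_EP, and 0 to 6 for TKO. Depth limits Epha10, Epha8, Robo3 and other members near 0, where a few reads set the value.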
